A study of Mus musculus with 2 samples.

Results

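The genes described here encode the machinery that separates chromosomes and divides the cell: the spindle and its motors, the kinetochore, the spindle checkpoint, the mitotic kinases, condensin and the contractile ring. A list of 50 such genes was fixed by name, and every probe set of the array that was annotated with the symbol of 1 of these genes alone was taken. All 50 genes were on the array, with 118 probe sets, out of 18193 genes and 34945 probe sets that carried a single symbol. The choice used names and no measured value, although the list itself was drawn up with results of these arrays known.

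Both groups were C57BL/6J mice, male and 10 weeks old. In the infarct group the left anterior descending coronary artery was ligated permanently, which cuts off the blood supply to a part of the left ventricle, and in the sham group the operation was done with no ligation. Hearts were taken 3 days later, with no separation of infarcted from remote muscle named in the labels, and RNA from 3 hearts was pooled per group and hybridised to 1 GeneChip Mouse Genome 430 2.0 array, a short-oligonucleotide array on which several probe sets can stand for a gene. With 1 array per group there was no replicate and no test between the groups, and each difference given below compares 1 pool with 1 other pool. The tissue label was checked against cardiomyocyte markers, and all 8 of them (Myh6, Tnnt2, Tnni3, Actc1, Myl2, Myl3, Ryr2 and Nppa) lay between 13.0 and 14.9 on the log2 scale in sham hearts and between 12.6 and 14.9 in infarcted hearts. All values are RMA values on the log2 scale, where a difference of 1 is 2-fold, and all differences are infarct minus sham. Where a gene had several probe sets, the one with the highest mean over both arrays stood for it.

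In mitosis, chromosomes are condensed, attached to spindle microtubules through their kinetochores and held until the spindle checkpoint has been satisfied. The anaphase-promoting complex, a ubiquitin ligase, then releases the sister chromatids, and a contractile ring at the cell's middle completes division. Most of these genes are transcribed late in the cell cycle and are silent in resting cells, which is why Mki67 and Top2a serve as markers of dividing cells, and most cells of the adult heart are at rest. RNA of all cells of the heart was measured together, so more dividing cells and more RNA per cell cannot be told apart.

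The mitotic genes were higher in the infarct pool with few exceptions. The median difference of the 50 genes was 1.73, with quartiles of 1.37 and 1.98, and their median level was 6.71 in sham hearts and 8.28 in infarcted hearts. Over all 18193 genes the median difference was -0.025, with quartiles of -0.21 and 0.19. In total, 41 of the 50 mitotic genes were at least 2-fold higher after infarction, against 2.57% of all genes, and 11 passed 4-fold. None (0 of 50) was at least 2-fold lower, against 0.874% of all genes. At the stricter difference of 1.4, which the study used for its own selection, 32 of the 50 were higher, against 1.02% of all genes. A difference above 0 was seen for 49 of the 50, and for 45.7% of all genes. Of the 100 genes with the highest differences on the array, 24 were mitotic genes of this list, and of the 250 highest 39 were.

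**Figure D1:**
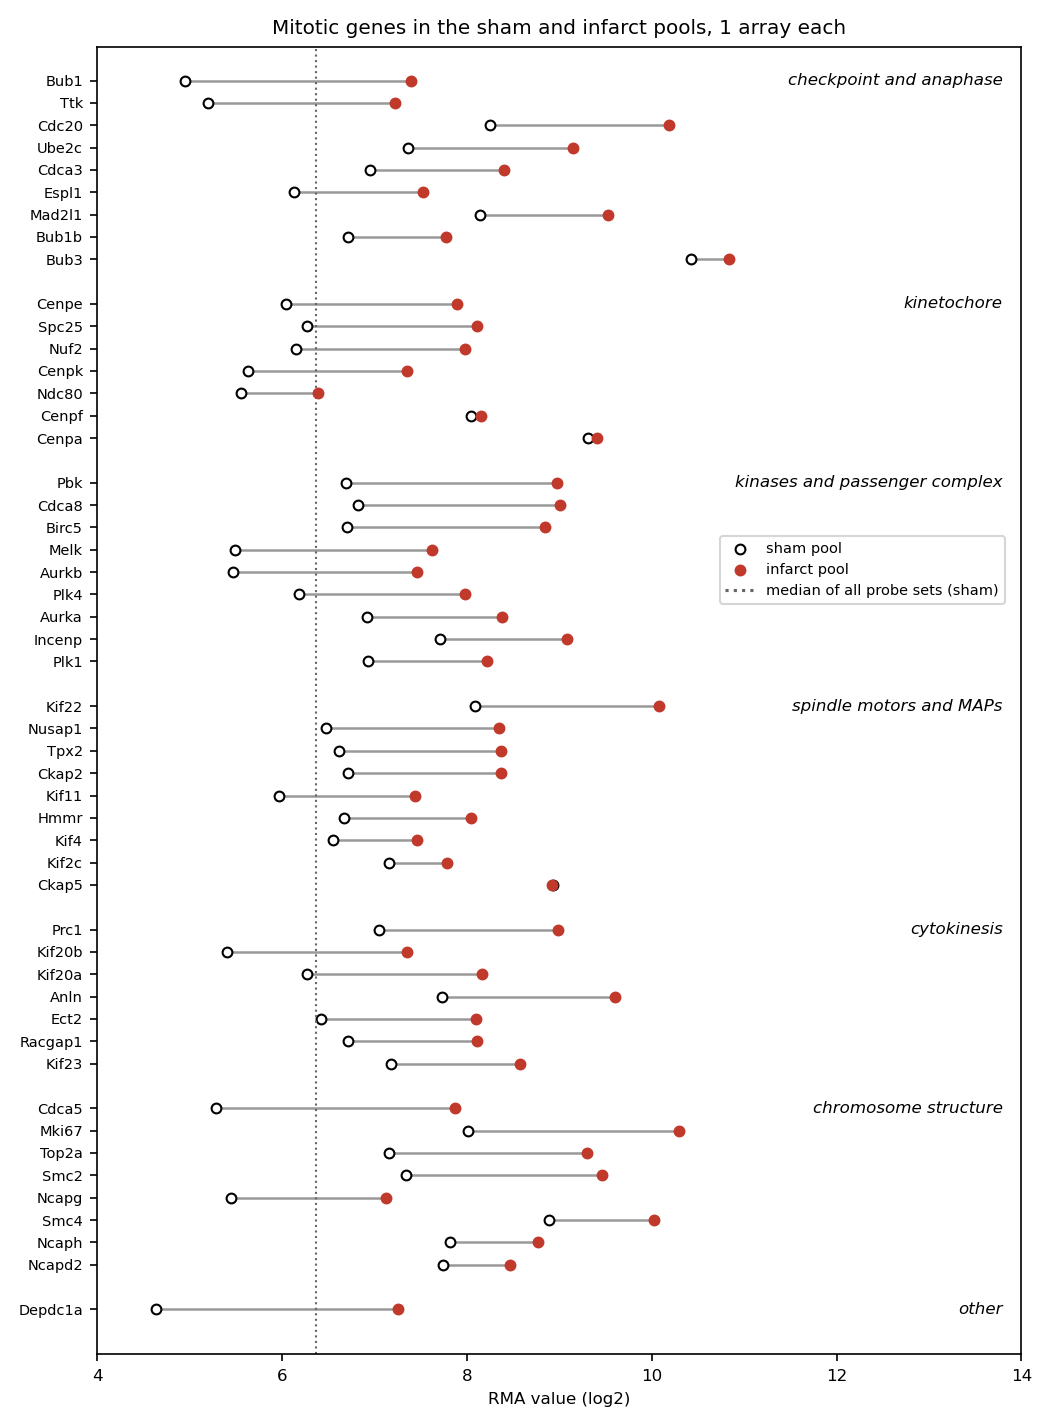
Level of each mitotic gene in the sham pool (open circles) and in the infarct pool (red circles) as RMA values on the log2 scale, grouped by role, with 1 array per pool and the median of all probe sets in the sham pool as a dotted line. The red circle lies to the right of the open circle for 49 of 50 genes, and the pairs of Cenpf, Cenpa and Ckap5 nearly coincide.

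These counts can be read against the level of the genes and the scaling of the arrays. In the sham pool 17 of the 50 genes were dim, that is, below the median of all probe sets of that array (6.36), and in the infarct pool 0 were below its median (6.35). Of the 17, 16 were at least 2-fold higher after infarction, with a median difference of 1.85 for the 17, and the size of such a difference rests on a low sham signal. Of the 33 genes that were bright in the sham pool, 25 were at least 2-fold higher, with a median difference of 1.45. When a gene had to be bright on at least 1 array, all 50 were kept, 17 of them only through the infarct pool. The count of 41 could therefore not change, while 3.73% of the 11961 genes kept were at least 2-fold higher. When the mean of both arrays had to be bright, which also uses the infarct value, 37 of 45 were, against 3.61% of 11683 genes. Centring the arrays on housekeeping genes, which were themselves higher in the infarct pool by a mean of 0.36, moved the median of all genes to -0.39, and centring on the spiked hybridisation controls, which differed by a mean of -0.32, moved it to 0.29. The first left 38 of the 50 mitotic genes at least 2-fold higher, with 1.15% of all genes higher and 3.62% lower, and the second left 45, with 5.62% higher and 0.231% lower. Differences of less than about these shifts therefore have no settled sign.

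**Figure D2:**
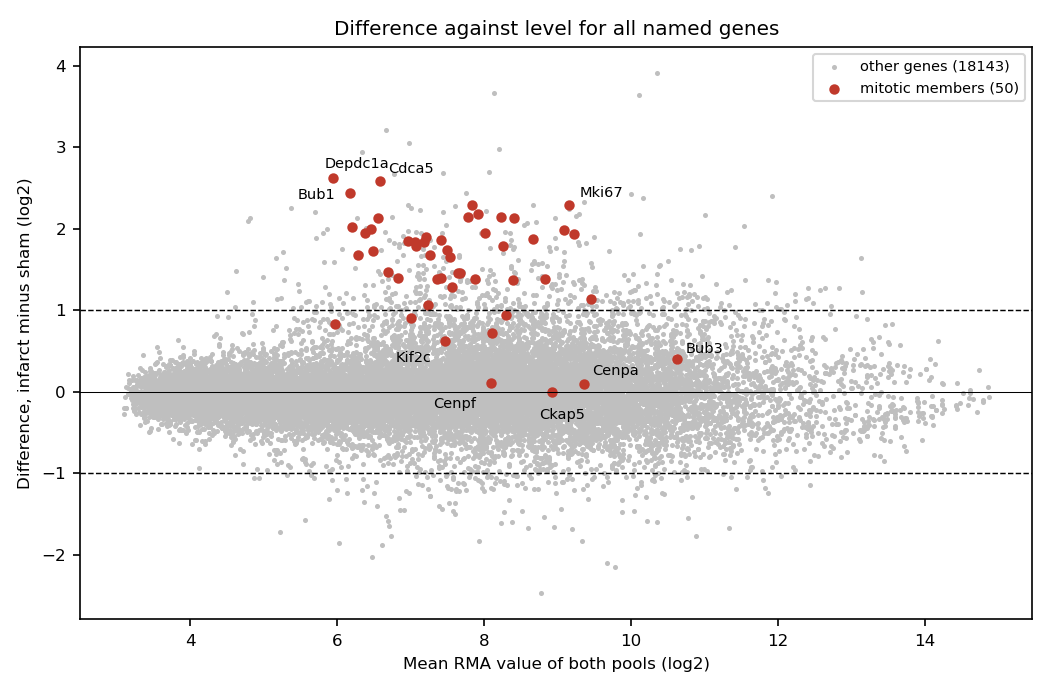
Difference between the pools (infarct minus sham, log2) against the mean RMA value of both pools (log2) for 18193 genes, with the 50 mitotic genes in red and dashed lines at 2-fold. The red points form a band mostly between 1 and 2.62 across the middle range of levels, while Bub3, Cenpa, Cenpf and Ckap5 lie near 0.

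Markers of other cell types also differed between the pools. Of 9 macrophage markers 4 were at least 2-fold higher after infarction, with the mean level of the list at 9.62 in sham hearts and 10.5 in infarcted hearts, and of 5 neutrophil markers 4 were, with means of 6.99 and 8.17. Of 8 fibroblast markers 2 were at least 2-fold higher, Postn by 1.28 and Thy1 by 1.09, with means of 11.6 and 12.1, while Tcf21 differed by 0.061, Pdgfra by -0.14 and Dcn by -0.34. None of 8 endothelial (0), 6 smooth muscle (0), 8 lymphocyte (0), 4 erythroid (0) or 8 cardiomyocyte (0) markers reached 2-fold. Of the lymphocyte markers 5 and of the erythroid markers 2 were dim in both pools. The cardiomyocyte markers had a median of 14.7 in both pools, close to the highest value of the arrays, 14.9, which leaves little room for a rise. The part of these cells in the values of the mitotic genes was not tested.

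The promoters of the 3 mitotic genes with the highest differences and of the 3 with the lowest are shown next, because the genes of the list that moved together and those that did not can then be compared letter by letter. Promoters of many late cell cycle genes carry a short element named the cell cycle genes homology region (CHR), spelled TTTGAA in some promoters and TTCGAA in others, which the MuvB complex binds through its LIN54 subunit, and boxes with the letters CCAAT, to which the factor NF-Y binds. Each sequence runs 5′ to 3′ from 250 bases before the RefSeq gene start to 50 bases after it in GRCm38.p6. Capitals mark every CHR match on either strand, where the first spelling reads TTCAAA on the opposite strand, and every CCAAT match, which reads ATTGG there.
Depdc1a, chr3:159495183-159495482, plus strand: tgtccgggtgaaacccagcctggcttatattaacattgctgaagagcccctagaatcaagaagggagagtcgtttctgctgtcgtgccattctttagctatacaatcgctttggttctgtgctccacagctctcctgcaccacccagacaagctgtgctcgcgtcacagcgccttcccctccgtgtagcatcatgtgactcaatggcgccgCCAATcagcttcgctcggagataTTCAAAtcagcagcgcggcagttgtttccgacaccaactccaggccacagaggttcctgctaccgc
Cdca5, chr19:6084847-6085146, plus strand: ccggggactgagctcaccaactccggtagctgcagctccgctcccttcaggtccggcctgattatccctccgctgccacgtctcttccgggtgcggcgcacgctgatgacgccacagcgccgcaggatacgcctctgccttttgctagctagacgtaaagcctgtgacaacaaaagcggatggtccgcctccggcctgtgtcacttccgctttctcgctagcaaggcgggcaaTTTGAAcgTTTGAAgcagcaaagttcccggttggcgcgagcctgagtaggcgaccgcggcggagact
Bub1, chr2:127831810-127832109, minus strand: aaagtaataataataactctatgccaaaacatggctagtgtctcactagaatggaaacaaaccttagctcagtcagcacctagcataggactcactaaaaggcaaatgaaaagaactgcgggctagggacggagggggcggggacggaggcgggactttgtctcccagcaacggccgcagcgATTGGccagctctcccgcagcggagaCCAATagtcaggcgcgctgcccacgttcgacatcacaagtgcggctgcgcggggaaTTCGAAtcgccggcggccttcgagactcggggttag
Cenpf, chr1:189688037-189688336, minus strand: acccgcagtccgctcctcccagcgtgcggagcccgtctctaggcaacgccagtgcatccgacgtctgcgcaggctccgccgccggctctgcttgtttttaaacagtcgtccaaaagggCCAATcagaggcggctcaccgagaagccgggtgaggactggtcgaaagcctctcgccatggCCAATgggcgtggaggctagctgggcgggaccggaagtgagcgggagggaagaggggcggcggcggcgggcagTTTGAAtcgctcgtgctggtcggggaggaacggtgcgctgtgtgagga
Cenpa, chr5:30666636-30666935, plus strand: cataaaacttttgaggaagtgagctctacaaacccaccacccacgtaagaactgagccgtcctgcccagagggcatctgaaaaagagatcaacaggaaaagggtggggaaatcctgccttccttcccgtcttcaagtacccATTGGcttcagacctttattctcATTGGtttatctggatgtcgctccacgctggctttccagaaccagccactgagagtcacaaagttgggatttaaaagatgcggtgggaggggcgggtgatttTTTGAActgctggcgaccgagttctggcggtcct
Ckap5, chr2:91526512-91526811, plus strand: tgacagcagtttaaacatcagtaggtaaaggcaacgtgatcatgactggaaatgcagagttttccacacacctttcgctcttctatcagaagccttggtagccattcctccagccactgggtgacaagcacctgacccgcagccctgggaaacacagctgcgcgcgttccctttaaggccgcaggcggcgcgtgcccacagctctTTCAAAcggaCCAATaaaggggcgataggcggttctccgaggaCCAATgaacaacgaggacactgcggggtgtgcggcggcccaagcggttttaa
All 6 windows held a CHR match, and 5 of the 6 held a CCAAT match. In Depdc1a the CHR letters began 16 bases before the start, in Cdca5 they came as a pair at 17 and 9 bases before it, and in Bub1 they began 14 bases after it. In the 3 genes that barely differed, the CHR letters began 2 bases after the start in Cenpf, 16 after it in Cenpa and 45 before it in Ckap5. The letters thus did not separate the highest genes from the lowest.

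RefSeq promoter windows were found for 44 of the 50 genes, 49 windows in all, and were searched on both strands. A CHR match was present in 38 of the 49 windows (77.6%), against 19.2% of all 32851 windows of the same length. Within 50 bases on either side of the start it was present in 33 (67.3%), against 5.31% of all windows. A CCAAT match was present in 37 windows (75.5%), against 37.4% of all, and both motifs in 33 (67.3%), against 7.52% of all. In 1 window, that of Cdca8, a CHR match and a CCAAT match shared 1 base, and in the others no match overlapped one of another motif. The E2F letters TTTGGCGC, TTTCCCGC, TTTCGCGC and TTTGCCGC were present in 2 of the 49 windows (4.08%), against 2.26% of all. Among the 18009 windows of genes on the array, 15.1% held a CHR match and 3.89% held one near the start. In the same windows the share was 37.4% for CCAAT and 3.2% for the E2F letters. Windows of the genes that were at least 2-fold higher held a CHR match in 29 of 39 (74.4%), and those of the genes under 2-fold in 9 of 10 (90%). Near the start the order was the other way, with 27 of 39 (69.2%) against 6 of 10 (60%), as it was for CCAAT, with 30 of 39 (76.9%) against 7 of 10 (70%), and the small number of windows under 2-fold allows no ranking. Such a match describes the letters in the window and is not evidence of binding.

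Of 10 genes for MuvB subunits and their partners, which bind these elements or act with those that do, 1 was at least 2-fold higher after infarction. Rbl1, the gene for the pocket protein p107, was at 6.98 in sham hearts and 8.38 in infarcted hearts, a difference of 1.41, with its 4 probe sets between -0.14 and 1.41. Foxm1, which encodes the forkhead factor that joins MuvB in G2, was at 7.52 and 7.55, a difference of 0.029, but its 4 probe sets ran from -0.066 to 0.89, so its difference is uncertain. Mybl2, the gene for B-MYB, differed by 0.20. The MuvB subunit genes Lin54, Lin9, Lin37 and Rbbp4 differed by 0.57, 0.31, 0.22 and 0.20, and Lin52 by -0.32. E2f4 differed by -0.011 and Rbl2, the gene for p130, by -0.49. Apart from Rbl1, Lin54 and Rbl2, the values of the probe sets that stand for these genes lie within the scaling shifts or at their edge, so their signs are not settled. These values are RNA levels, and the activity of the proteins was not measured.

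The spindle checkpoint and anaphase genes had a median difference of 1.45, and 8 of the 9 were at least 2-fold higher after infarction. Bub1, a kinase gene whose product recruits other checkpoint proteins to kinetochores, was at 4.95 in sham hearts and 7.39 in infarcted hearts, a 5.42-fold difference. The probe set of Ttk, the gene for the kinase that starts the checkpoint signal, read 5.20 and 7.22, a 4.05-fold difference. Both were dim in the sham pool. Cdc20, which encodes the activator of the anaphase-promoting complex that the checkpoint holds back, was at 8.25 and 10.2, a difference of 1.93. For Ube2c, the gene for the ubiquitin-conjugating enzyme that works with this complex, the values were 7.36 and 9.15, a difference of 1.78. Both genes of the ubiquitin step were bright in both pools. The levels of Mad2l1, whose product binds Cdc20 to block it, were 8.14 and 9.52, a difference of 1.38. Those of Bub1b, another part of the inhibitor of Cdc20, were 6.71 and 7.77, a difference of 1.06 that was the lowest among the genes past 2-fold. Bub3, the partner of both Bub1 and Bub1b, was at 10.43 and 10.83, a difference of 0.40, and was the exception in this group. Espl1, the gene for separase, which cuts the cohesin that holds sister chromatids, was at 6.13 and 7.53, a difference of 1.397. Cdca3, the gene for a protein that promotes entry into mitosis, was at 6.95 and 8.40, a difference of 1.45.

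Of the kinetochore genes 4 of 7 were at least 2-fold higher after infarction, the smallest share of the 6 role groups, and the median difference was 1.72. Cenpe, a kinesin gene whose product moves chromosomes to the spindle equator, was at 6.04 in sham hearts and 7.89 in infarcted hearts, a difference of 1.85. Cenpk, a gene of the centromere-associated network beneath the microtubule-binding layer, was at 5.62 and 7.35, a difference of 1.72. The NDC80 complex, the main link between kinetochore and microtubule, has 4 subunits, and their genes had unequal differences. Spc25 was at 6.27 and 8.11, and Nuf2 at 6.15 and 7.98, differences of 1.84 and 1.83. Ndc80 itself was at 5.55 and 6.38, a difference of 0.83, and its infarct value lay just above the median of the array. Spc24, the remaining subunit and not on the list, was at 7.43 and 7.88, a difference of 0.44. Each of Ndc80, Nuf2 and Spc24 was measured by 1 probe set, and another, dim probe set of Spc25 differed by -0.24. A difference between these subunits is therefore not settled. Cenpa, the histone variant that marks the centromere, was at 9.31 and 9.41, a difference of 0.10 that ran from -0.26 to 0.42 over the scalings. Cenpf, a large protein of the outer kinetochore, was at 8.04 and 8.15, a difference of 0.11 that ran from -0.25 to 0.43. The probe sets that stand for both genes were bright in both pools, and a dim probe set of Cenpf differed by 0.64.

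All 9 genes of mitotic kinases and the chromosomal passenger complex were at least 2-fold higher after infarction, with a median difference of 1.99. The passenger complex, which corrects wrong attachments and later directs cytokinesis, consists of the kinase Aurkb and 3 partners. Aurkb was at 5.47 in sham hearts and 7.46 in infarcted hearts, a difference of 1.99. Birc5, the gene for survivin, was at 6.70 and 8.85, a difference of 2.14. Cdca8, the gene for borealin, was at 6.82 and 9.004, a difference of 2.19. Incenp, the scaffold that holds the other subunits, was at 7.71 and 9.08, a difference of 1.37 that was the lowest of the 4. Its bright probe sets ran from 0.73 to 1.37. Aurora A, encoded by Aurka, acts at the spindle poles, and its gene was at 6.92 and 8.38, a difference of 1.46. Plk1, a kinase gene needed from mitotic entry to cytokinesis, was at 6.92 and 8.22, a difference of 1.29. Plk4, whose product controls centriole duplication, was at 6.18 and 7.98, a difference of 1.79. Pbk and Melk are kinase genes with high RNA in dividing cells. Pbk was at 6.69 and 8.98, a 4.88-fold difference, and Melk at 5.49 and 7.62, a 4.37-fold difference. Aurkb, Plk4 and Melk were dim in the sham pool.

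Spindle motors and microtubule-associated proteins gave 6 of 9 genes at least 2-fold higher and a median difference of 1.47. Kif22, the gene for a chromokinesin that pushes chromosome arms outward, was at 8.09 in sham hearts and 10.1 in infarcted hearts, a difference of 1.99. Kif11, the gene for the motor that pushes the spindle poles apart, was at 5.96 and 7.44, a difference of 1.47. Kif4, the gene for a chromokinesin that also acts at the central spindle, was at 6.55 and 7.46, a difference of 0.91. Kif2c, which encodes a microtubule depolymerase, was at 7.16 and 7.78, a difference of 0.62. With Cenpe, Kif20a, Kif20b and Kif23 counted under their own roles, the kinesins of this list therefore had both high and low differences. Tpx2, which encodes the activator of Aurora A on spindle microtubules, was at 6.62 and 8.36, a difference of 1.74. Nusap1, which encodes a microtubule-bundling protein, was at 6.48 and 8.35, a difference of 1.87. Ckap2 and Hmmr encode spindle-associated proteins, and Hmmr also a hyaluronan receptor. Ckap2 was at 6.72 and 8.37, a difference of 1.65, and Hmmr at 6.67 and 8.05, a difference of 1.38. Ckap5, the gene for a microtubule polymerase, was at 8.93 and 8.92, a difference of -0.0059 that ran from -0.37 to 0.31 over the scalings and was the only one of the 50 below 0 in the deposited values.

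On the probe sets that stand for the genes, the cytokinesis genes had the narrowest range of the 6 role groups. All 7 of 7 were at least 2-fold higher after infarction, with differences between 1.39 and 1.94. Prc1, which encodes the protein that bundles microtubules in the central spindle, was at 7.04 in sham hearts and 8.99 in infarcted hearts, a difference of 1.94. Kif20b, a kinesin gene of late cytokinesis, was at 5.41 and 7.35, a difference of 1.94. Kif20a, the gene for the kinesin that carries the passenger complex to the central spindle, was at 6.26 and 8.17, a difference of 1.90. The kinesins Kif20a and Kif20b were dim in the sham pool. Anln, the gene for the ring scaffold anillin, was at 7.73 and 9.60, a difference of 1.88. Ect2, which encodes the exchange factor that activates RhoA at the equator, was at 6.42 and 8.10, a difference of 1.68. Racgap1 and Kif23 encode the subunits of centralspindlin, which recruits Ect2. Racgap1 was at 6.71 and 8.11 and Kif23 at 7.18 and 8.57, and both differed by 1.39. The other bright probe set of Racgap1 differed by 2.12, and Kif23 had only 1 bright probe set. The dim probe sets of Kif20b differed by 0.42, 0.24 and 0.099. With the probe sets of a gene averaged, Kif20b fell to 0.68 and Kif23 to 0.94. The 7 of 7 and the narrow range are therefore not settled.

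Among the genes of chromosome structure 6 of 8 were at least 2-fold higher, with a median difference of 1.90. Mki67, the gene for the protein that coats mitotic chromosomes and keeps them apart, was at 8.02 in sham hearts and 10.3 in infarcted hearts, a 4.87-fold difference. Top2a, the gene for the topoisomerase that untangles sister DNA, was at 7.16 and 9.30, a 4.42-fold difference. Cdca5, which encodes sororin, the protector of cohesin until anaphase, was at 5.29 and 7.87, a 6.01-fold difference, and was dim in the sham pool. Smc2 and Smc4 encode the core ATPases that both condensin complexes share. Smc2 was at 7.34 and 9.46, a difference of 2.13, and Smc4 at 8.89 and 10.03, a difference of 1.14. The 5 subunits of condensin I spanned a range of 1.41, against 0.81 for the 4 of the passenger complex. Both ranges rest on the probe sets that stand for the genes. Bright probe sets of Incenp ran from 0.73 to 1.37, and those of Ncapd2 from 0.17 to 0.72. A difference between the complexes in this range is therefore not settled. Ncapg was at 5.45 and 7.12, a difference of 1.68, Ncaph at 7.82 and 8.77, a difference of 0.95, and Ncapd2 at 7.74 and 8.46, a difference of 0.72. Ncaph had the highest difference among the genes under 2-fold, although its other probe set, also bright, differed by 1.18. Of the subunits that only condensin II has, none of them on the list, Ncapg2 was at 7.65 and 9.27, a difference of 1.62, whereas Ncaph2 and Ncapd3 differed by 0.15 and -0.064, values within the scaling shifts. Depdc1a, placed in no group, was at 4.63 and 7.25, a 6.14-fold difference, which was the highest of the 50 and started from a dim value measured by 1 probe set.

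Probe sets of the same gene give the only measure of error in these data, and they cover the probes and not the mice. Over 5190 genes with at least 2 bright probe sets, their differences varied with a pooled SD of 0.23. For the 21 mitotic genes with at least 2 bright probe sets this SD was 0.46, and for 170 other genes that were at least 2-fold higher it was 0.43. In 20 of the 21 genes every bright probe set lay above 0, the exception being Ckap5, in 11 every one was at least 1, and in 7 they lay on both sides of 1. These 7 were Cdca5, Cdc20, Incenp, Kif22, Kif2c, Ncaph and Smc4. Bright probe sets ran from 0.90 to 1.93 for Cdc20, from 0.73 to 1.37 for Incenp and from 0.82 to 1.14 for Smc4. The spread was small for Prc1, at 1.81 and 1.94, and for Aurkb, at 1.99 and 2.09. It was large for Cdca5, at 0.97 and 2.59, for Kif2c, between 0.62 and 1.87, and for Kif22, between 0.71 and 1.99. Kif2c and Ncaph stood under 2-fold only through the brightest of their bright probe sets. The others were at 1.46 and 1.87 for Kif2c and at 1.18 for Ncaph. Counted as probe sets, 65 of 118 were at least 2-fold higher, against 2.23% of all probe sets with 1 symbol, and 62 of the 80 bright ones were, against 3.52% of all bright probe sets. The 38 dim probe sets had a median difference of 0.24, between -0.35 and 1.62, with 3 past 2-fold. A probe set counted as bright if it reached the median on either array, so a high infarct value alone made it bright. The counts among bright probe sets, and their contrast with the dim ones, therefore depend in part on the difference itself. With the probe sets of a gene averaged, 31 of the 50 genes were at least 2-fold higher and their median difference was 1.26.

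**Figure D3:**
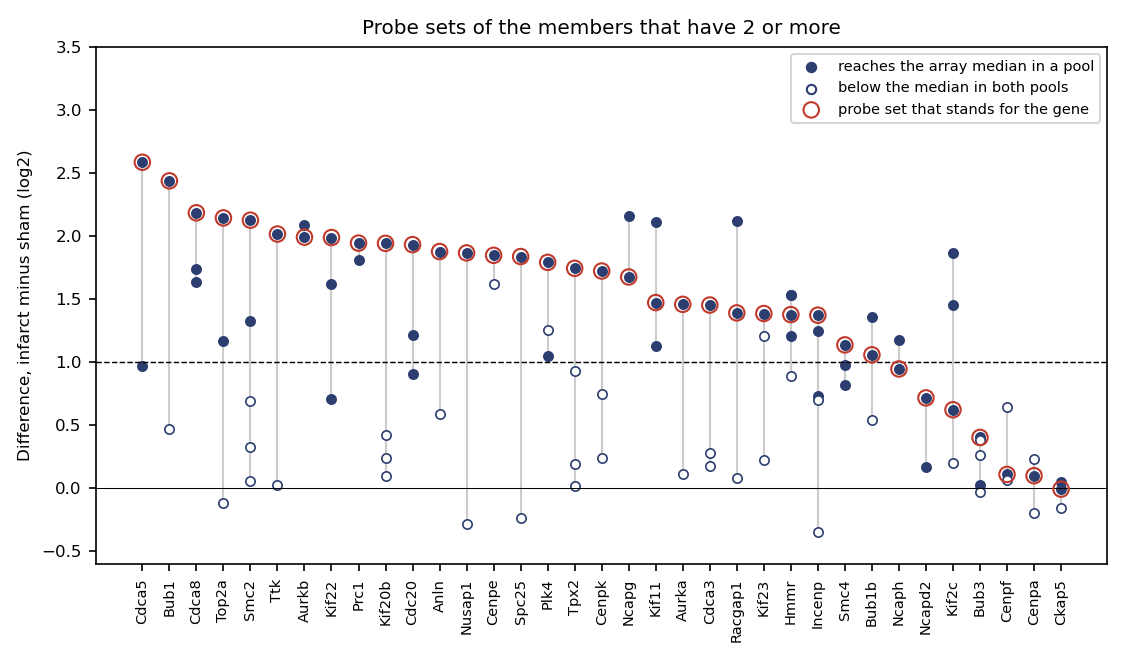
Difference (infarct minus sham, log2) of every probe set of the 35 mitotic genes with at least 2, filled where the probe set was bright on an array, open where it was dim on both, and ringed in red where it stands for the gene. Most open circles lie below the filled ones of the same gene, and the 38 dim probe sets of the list have a median of 0.24 against 1.504 for the 80 bright ones. A high infarct value alone makes a probe set bright, so this contrast depends in part on the difference itself.

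Other genes of mitosis, not on the list, lay on both sides of 2-fold. Of 55 such genes 20 were past it, 48 were above 0, and the median difference was 0.68. Ska1, a gene of the kinetochore complex that follows shrinking microtubules, was at 4.26 in sham hearts and 6.51 in infarcted hearts, a difference of 2.25, and its 3 probe sets ran from 0.012 to 2.25. Cep55, whose product acts at the final cut of cytokinesis, was at 6.34 and 8.54, a difference of 2.21, and the centromere gene Cenpi at 5.68 and 7.63, a difference of 1.95. All 3 were dim in the sham pool. At the other end, Pttg1, the gene for securin, was at 13.2 and 12.6, a difference of -0.56. Kif14, dim in both pools, differed by -0.24, a value within the scaling shifts. Troap differed by -0.21 on the probe set that stands for it and by 0.90 on the other, so its direction is not settled. The difference between these shares and those of the list of 50 was not tested. Of the mitotic cyclins and their kinase, Cdk1 differed by 2.05, Ccna2 by 1.87, Ccnb2 by 1.77 and Ccnf by 0.84, and Ccnb1 was not analysed here.

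Gene families that share function or structure with the list, but whose products also work outside mitosis, had medians near 0. Of a list of 13 genes, 12 of them subunits of the anaphase-promoting complex and 1 its activator Fzr1, 0 were at least 2-fold higher, and the median difference was 0.049, from -0.45 for Anapc13 to 0.39 for Anapc10. The list left out the subunit genes Anapc15 and Anapc16, which differed by 0.71 and -0.035 and were named after their values were seen. The activator Cdc20 and the enzyme Ube2c, given above, differed by 1.93 and 1.78. Of 10 genes of cohesin and its loaders and release factors 0 were at least 2-fold higher, with a median difference of 0.16, whereas the cohesin regulators of the list, Cdca5 and Espl1, differed by 2.59 and 1.397. Of 21 kinesin genes without a known main role in the spindle 1 was at least 2-fold higher, Kif26b at 1.25, and the median was -0.066, with Kif21a lowest at -0.79. The 3 medians lie within the scaling shifts and have no settled sign. CHR letters were present in 1 of 14 promoter windows of the anaphase-promoting complex (7.14%), 2 of 8 of cohesin (25%) and 3 of 20 of these kinesins (15%). In windows of the further mitotic genes that are not on the list, they were present in 26 of 51 (51%). The E2F letters were present in 7 of those 51 windows (13.7%).

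**Figure D4:**
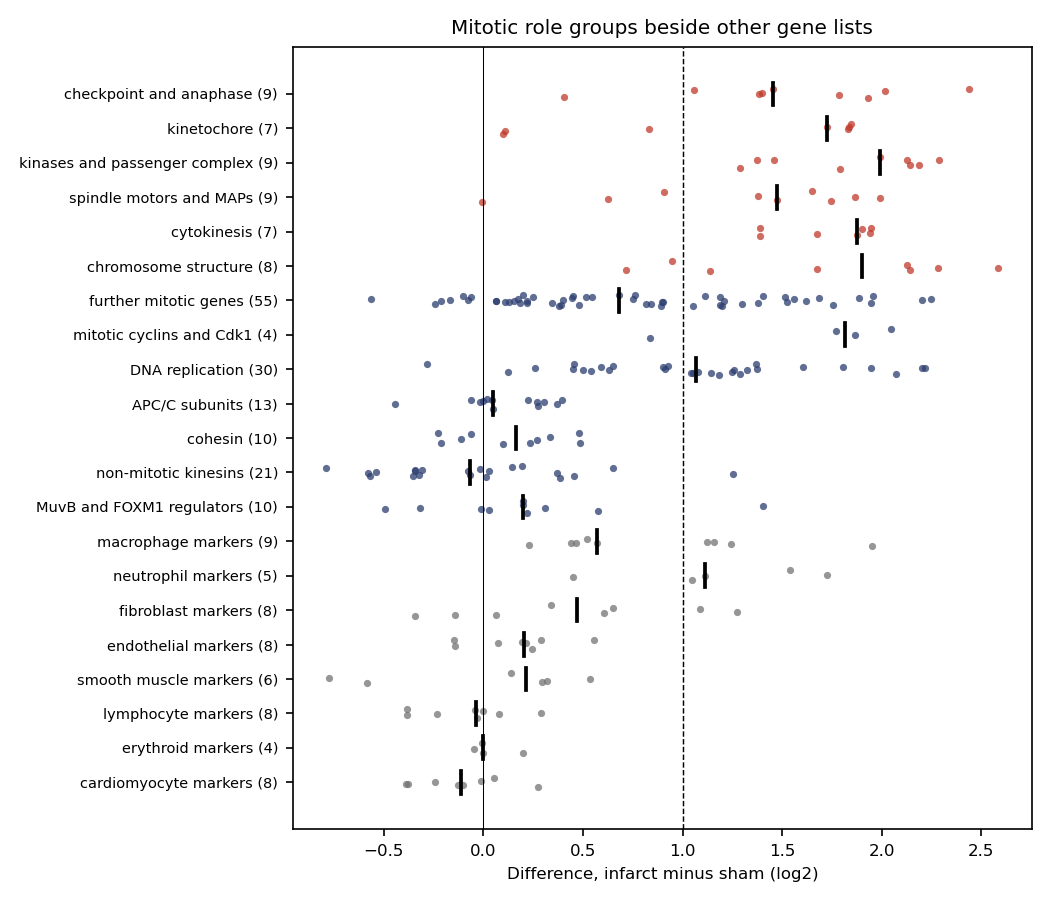
Difference (infarct minus sham, log2) of each gene in the role groups of the mitotic list (red), in other gene lists (blue) and in cell type marker lists (grey), with the number of genes in brackets, black bars at the medians and a dashed line at 2-fold. The role groups have medians between 1.45 and 1.99, and the anaphase-promoting complex, cohesin and non-mitotic kinesins have medians of 0.049, 0.16 and -0.066.

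**Figure D5:**
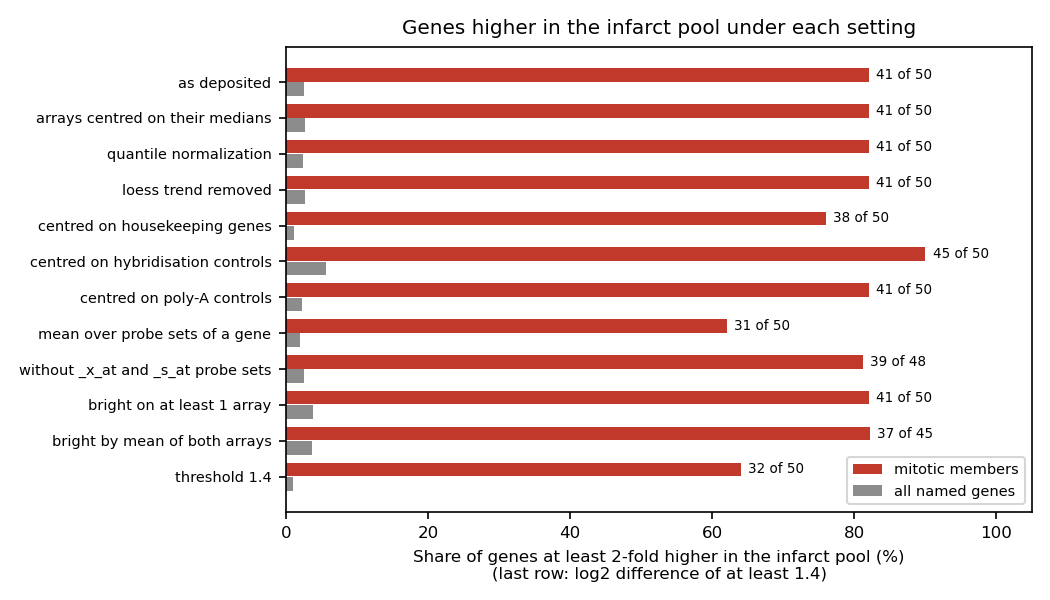
Share of genes (%) at least 2-fold higher after infarction among the mitotic genes (red) and among all genes named by 1 symbol (grey) under each processing setting, the last row being a difference of at least 1.4. Between 31 and 45 of the 50 mitotic genes passed 2-fold wherever all 50 were kept, and 32 passed 1.4.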

How the data were processed

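Frozen hearts were extracted with ISOGEN, the RNA was purified with an RNeasy kit and pooled, and biotinylated cRNA was made from 2 µg of it. The labels name the deposited values as RMA output, which is on the log2 scale: the authors corrected probes for background, normalised the 2 arrays to a common distribution and summarised each probe set to 1 value. Which program and version computed RMA is not given in the sources used here. Scaling to a common distribution hides a difference in total mRNA per heart, and no scanner file was used here.

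Of 45101 probe sets 34945 had 1 symbol in the array's annotation, 932 had several, 9160 had none and 64 were controls, and 0 probe sets with several symbols held a mitotic gene of the list. All 50 symbols matched RefSeq by Entrez identifier. The members and the other lists were chosen with earlier results of these data known. All members were described. Of other lists the genes with the 3 largest differences in each direction could be named, of the cyclins, MuvB genes and cell type markers all genes, and complex partners of members were named beside them. Promoters were those of the 3 highest and 3 lowest members with a window. A gene counted as higher or lower from a difference of 1 on the log2 scale, with no test. Alternatives were median centring, quantile normalisation, removal of a loess trend (span 0.4), centring on housekeeping genes or on hybridisation or poly-A controls, other choices of probe sets and a threshold of 1.4. The counting was tested on simulated data with little noise and shifts well past the threshold. That test checks the code and does not cover counts near 2-fold. Python 3.11.15 with numpy 2.4.6, pandas 2.3.3, statsmodels 0.14.6 and matplotlib 3.10.9 was used.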

Additional observations from a re-analysis of the deposited data

How the results depend on the processing

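The count of mitotic genes at least 2-fold higher, 41 of 50 as deposited, stayed at 41 with the loess trend removed and with centring on poly-A controls. It also stayed at 41 under median centring and quantile normalisation. The deposited values had already been normalised to a common distribution, so these settings could change little. The requirement of a bright array kept all 50 genes and could not change the count. Under the settings that kept all 50 at this threshold, the count lay between 31 and 45. The median difference of 1.73 moved to 1.37 with centring on housekeeping genes, to 2.05 with centring on hybridisation controls and to 1.26 with the probe sets of a gene averaged. The count of further mitotic genes at least 2-fold higher, 20 of 55, moved to 13 with centring on housekeeping genes, to 27 with centring on hybridisation controls, to 12 of 41 when the mean of both arrays had to be bright, and to 12 at a difference of 1.4. The cause of these moves was not tested. Of the 50 mitotic genes, 27 were at least 2-fold higher under every setting that kept them, 19 lay on both sides of 2-fold, and the sign differed between settings for 3, Cenpa, Cenpf and Ckap5. Of all genes 468 were at least 2-fold higher as deposited, 210 after centring on housekeeping genes, 1022 after centring on hybridisation controls and 185 at a difference of 1.4. No paired analysis was possible because each group has 1 array, and for the same reason no array could be left out and the spread between mice is unknown.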

Other observations

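Genes of DNA replication, the step before mitosis, were also higher in the infarct pool. Of 30 such genes 17 were at least 2-fold higher, 29 were above 0, and the median difference was 1.07. Rrm2, the gene for a subunit of the enzyme that makes deoxyribonucleotides, was at 6.92 in sham hearts and 9.14 in infarcted hearts, a difference of 2.22. Cdc6, whose product loads the replicative helicase, was at 4.602 and 6.80, a difference of 2.20, and the helicase subunit gene Mcm5 at 7.56 and 9.63, a difference of 2.07, although the 3 probe sets of Mcm5 ran from 0.054 to 2.07. Gmnn, the gene for the licensing inhibitor geminin, differed by -0.28, a value within the scaling shifts. Orc1 and Fen1 differed by 0.12 and 0.26 on the probe sets that stand for them, but by 0.62 and 1.30 on their other probe sets, so the size of their differences is uncertain.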
